A study of Homo sapiens with 4 samples.

Results

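The core autophagy machinery was followed in total RNA and in ribosome-protected fragments (RPF, the mRNA stretches covered by ribosomes) of SW480, a human cell line derived from a colorectal adenocarcinoma. The members were 40 genes named by symbol, and 38 of them were among the 19192 genes of the count files. ATG2B and WDR45 were not analysed here. Wild-type cells were compared with cells of genotype IMP1-/-, in which the RNA-binding protein IMP1 (gene symbol IGF2BP1) is labelled as knocked out, and no other treatment is given. There were 4 libraries, 1 for each genotype and library kind, each from 3 pooled culture plates. Whether the IMP1-/- cells are 1 clone is not given in the sources used here, so genotype cannot be told apart from clone or culture. Nothing below rests on replicates, and the 95% intervals cover counting error only.

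Macroautophagy encloses cytoplasm in a double membrane, the autophagosome, and delivers it to the lysosome. A kinase complex around ULK1 or ULK2 starts the process, and a lipid kinase complex around PIK3C3 and BECN1 then marks the growing membrane with phosphatidylinositol 3-phosphate. Lipid transfer proteins feed that membrane, a ubiquitin-like conjugation system attaches LC3 and GABARAP proteins to it, and tethers and SNARE proteins fuse the closed vesicle with lysosomes. In intestinal epithelium the pathway is known for its part in Paneth cells and in the handling of bacteria. The transcription factors TFEB and TFE3 are known to activate autophagy and lysosome genes through E-box elements.

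In RNA, IGF2BP1 itself had 598 reads (wild type) and 571 (knockout), with 285 and 149 footprints. Its RNA change of 0.08 had an interval of −0.08 to 0.25, so the RNA does not show a loss of the gene, and its footprints were 1.91-fold lower. The second genotype is therefore written as knockout-labelled. Library totals were between 3778316 and 5551479 counts. Of the 9 intestinal epithelial markers, EPCAM, KRT8, KRT18 and KRT19 had at least 1081 reads in every library, while KRT20 had 0 in all 4 and CDX1 at most 2. The other 3 differed between the genotypes. CDH1 had 83 reads in wild-type and 286 in knockout-labelled RNA, and 88 and 275 in RPF. CDX2 had 268 and 103 reads in RNA and 108 and 72 in RPF, and VIL1 had 160 and 2 in RNA and 335 and 0 in RPF. Of 4 leukocyte markers only ITGAM was above 0, with counts of 2 (RNA) and 1 (RPF) in the wild-type libraries, while PTPRC and CD3E were at 0 in all 4 libraries. The 6 mesenchymal markers together had at most 5.474 CPM (counts scaled to the library total). The 3 endothelial markers together had 10.448 and 9.123 CPM in RNA, and 0 and 12.439 CPM in RPF, wild type first, and the part of these marker differences in the results was not tested.

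Each change is a log2 ratio, knockout-labelled over wild type, after scaling by the trimmed mean of M values. The change in translational efficiency (TE) is the RPF change minus the RNA change. A gene counted as measured when its pair of libraries held 50 reads or more, and for TE when RNA and RPF both did. A call needed a difference of 1.5-fold or more and an interval clear of 0. Of the members, 37 were measured in RNA, 36 in RPF and 35 in both.

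Taken as a whole list, the autophagy machinery was not called more often than other genes in RNA or RPF, and most members leaned slightly to the higher side. In RNA 7 members were higher and 3 lower, or 27.03% of the 37, while 34.0% of all 10875 genes measured were called (16.2% higher and 17.8% lower). In RPF 7 were higher and 4 lower, or 30.56% of the 36, beside 39.1% of all 9794 genes measured (19.0% higher and 20.1% lower). In TE 6 were higher and 8 lower, so 14 of the 35, beside 29.6% of all 9598 genes measured (15.7% higher and 13.9% lower). The median RNA change was 0.36 for the members and −0.01 for all genes, with 30 of 37 members above 0. The median RPF change was 0.29 against −0.00065, with 27 of 36 above 0, and the median TE change was 0.07 against 0.03. Reads of all members together made up 1641 CPM of wild-type and 1983 CPM of knockout-labelled RNA, and 1408 and 1695 CPM of RPF. Of the 35 members measured in both kinds, 3 were called in RNA and in RPF, or 8.57%, beside 18.6% of all 9598 genes. All 3 were higher in both, as were 7.89% of all genes. In all, 22 members were called in at least 1 of the 3 comparisons and 16 in none. Those 16 include ATG10 and TFEB, which were not measured in every comparison. The like share of all genes was not computed, so these 2 counts do not set the members apart from other genes.

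**Figure D1:**
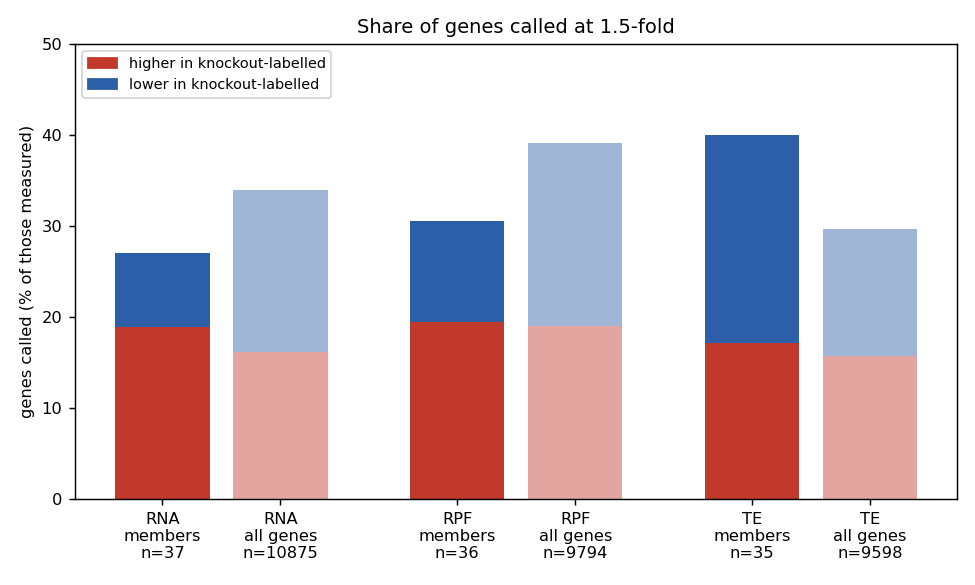
Stacked bars give the percent of measured genes called higher (red) or lower (blue) in the knockout-labelled library at 1.5-fold, for the members and for all genes, with the number measured under each bar. The members' bars reach 27.03% in RNA and 30.56% in RPF, under those of all genes, and the 14 of 35 called in TE stand above the 29.6% of all genes.

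The level of each member in every library is shown by step in the plot of CPM values. Most members lay between 10 and 150 CPM in each library. TFEB, ATG10 and ATG7 in RNA, and ULK2 and ATG10 in RPF, were the scarcest. In bulk libraries fewer cells that express a gene and less RNA per cell cannot be told apart.

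**Figure D2:**
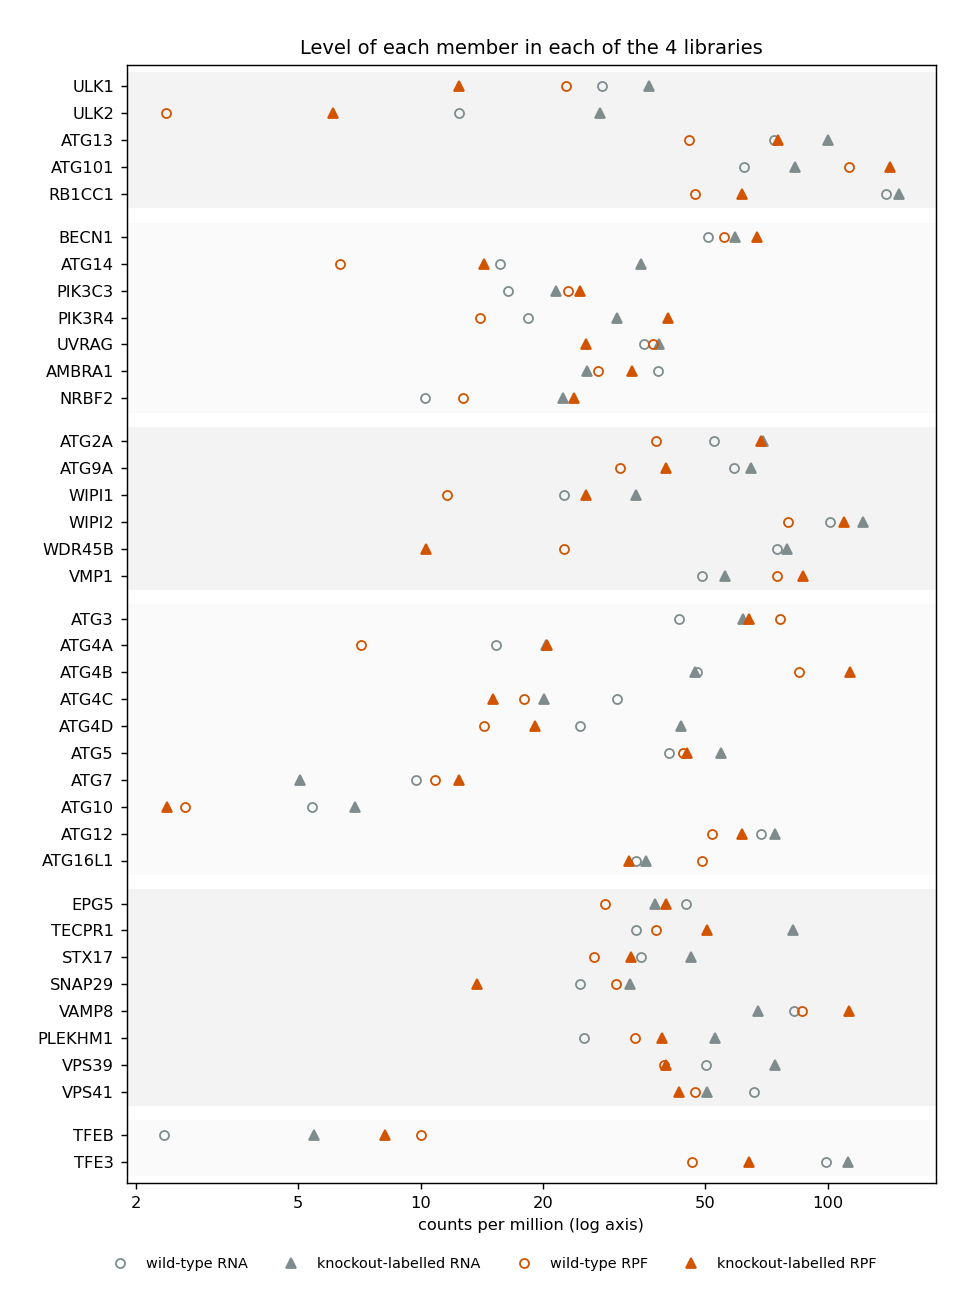
Each row is 1 member, grouped by step, and the log axis gives CPM in wild-type (open circles) and knockout-labelled (triangles) RNA (grey) and RPF (orange), 1 library each. WDR45B and SNAP29 show the triangle of RPF far left of its circle. ATG14, PIK3R4, WIPI1, ATG4A and, under the minimum of reads, ULK2 show it far to the right.

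**Figure D3:**
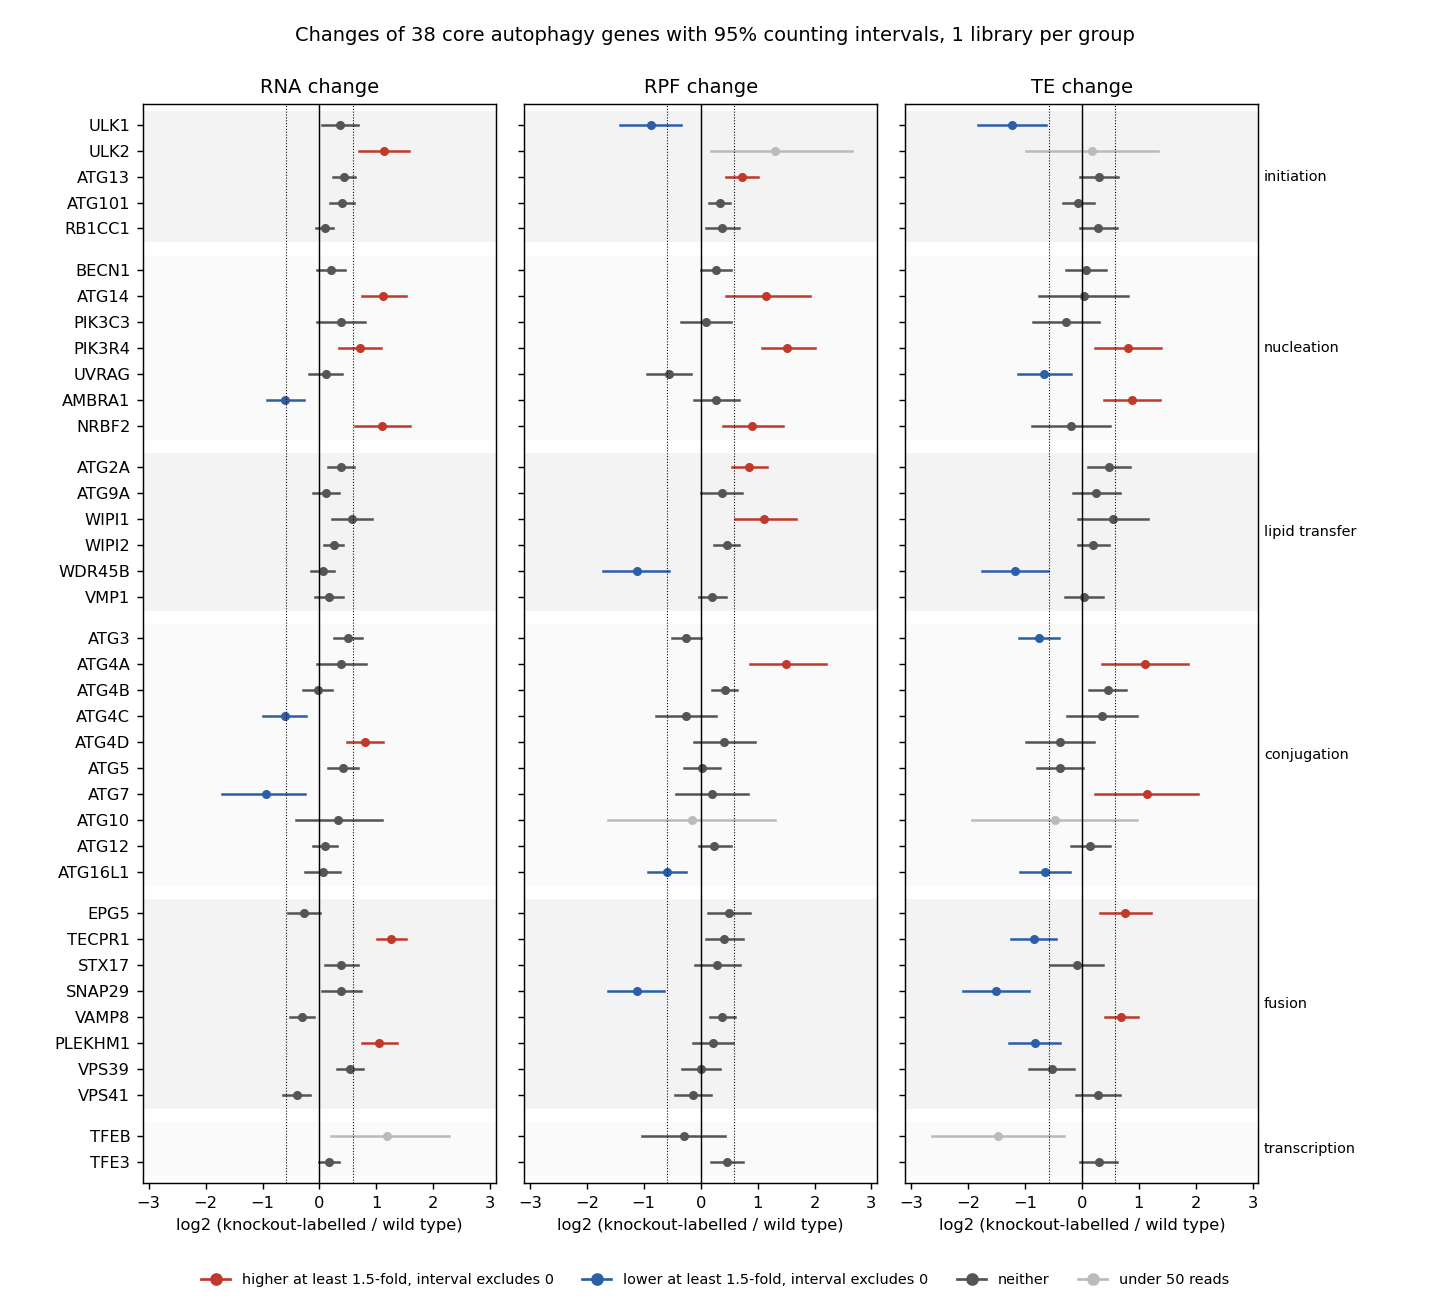
Points are log2 ratios of knockout-labelled over wild type for RNA, RPF and TE with 95% counting intervals as bars, dotted lines mark 1.5-fold, and grey points had under 50 reads. In RNA 7 members are higher and 3 lower, and in RPF 7 are higher and 4 lower, with 3 members, or 8.57% of the 35 measured in both, called in both, beside 18.6% of all genes.

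Among the initiation genes, the catalytic kinases ULK1 and ULK2 and the subunit ATG13 were called, and the rest of the complex was not. ULK1 (ENST00000321867, chromosome 12, 131894651 to 131923167, plus strand, GRCh38) had 155 RNA reads in wild type and 179 in the other genotype, but 86 and 47 footprints (below, wild type always comes first). Its footprints were 1.82-fold lower (log2 −0.87, −1.42 to −0.34) while its RNA change was 0.36, and its TE was 2.34-fold lower (−1.22, −1.82 to −0.63). That places ULK1 at percentile 3.84 of TE changes over all genes measured. The paralog ULK2 had 69 and 136 RNA reads and was 2.18-fold higher (1.13, 0.70 to 1.57). Its 9 and 23 footprints were under the minimum of 50. Per coding length, ULK1 stood at 2.22 times ULK2 in wild-type RNA and 1.30 times in knockout-labelled RNA. In RPF the same ratio was 9.43 and 2.02, on few ULK2 reads. The ratio of ULK1 to ULK2 was thus lower in knockout-labelled RNA. The RPF ratio rests on ULK2 counts under the minimum and is a description only, and no interval was computed for either ratio. Coding lengths of ULK1 and ULK2 are 3150 and 3108 bases, but transcript lengths are 5310 and 3908. The region counted is not given, so the RNA ratios do not settle which paralog was higher. The size of the RNA ratios of other paralogs below depends on the length used in the same way.

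ATG13, the subunit that links the kinase to its scaffold, had 408 and 493 RNA reads and 172 and 284 footprints. Its RPF were 1.65-fold higher (0.72, 0.44 to 1.00), with changes of 0.42 in RNA and 0.30 (−0.03 to 0.63) in TE. ATG101, which stabilises ATG13, had 346 and 410 RNA reads and 425 and 536 footprints, with changes of 0.40 and 0.33. RB1CC1, the large scaffold also called FIP200, had 769 and 737 RNA reads and 178 and 232 footprints, with changes of 0.09 and 0.38. Neither was called. These partners lay far apart in wild-type TE level (the ratio of RPF to RNA, set against the median gene), ATG101 at percentile 79.5 of all genes measured and RB1CC1 at percentile 7.39. All 5 initiation genes had RNA changes above 0, as had 5356 of all 10875 genes measured. In RNA 1 of the 5 was called (20%), beside 34.0% of all genes. In RPF 2 of the 4 measured were called, beside 39.1%, and in TE 1 of 4, beside 29.6%. Shares over so few genes are a description only.

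Of the 7 nucleation genes 3 were higher in RNA and in RPF, beside 7.89% of all genes higher in both (16.2% in RNA and 19.0% in RPF). These were ATG14, NRBF2 and PIK3R4, the 3 members called in both kinds, and a share over 7 genes is a description only. ATG14 directs the lipid kinase complex to autophagosome formation sites, NRBF2 is a further subunit of that ATG14-containing complex, and PIK3R4 (p150, VPS15) is the pseudokinase that anchors PIK3C3. ATG14 (ENST00000247178, chromosome 14, 55366392 to 55411858, minus strand) had 87 and 171 RNA reads and 24 and 54 footprints, 2.18-fold higher in RNA (1.12, 0.75 to 1.52) and 2.22-fold in RPF (1.15, 0.45 to 1.93). NRBF2 had 57 and 110 RNA reads and 48 and 90 footprints, 2.13-fold higher in RNA (1.09, 0.63 to 1.59) and 1.87-fold in RPF (0.90, 0.39 to 1.44). For both genes RNA and footprints were higher by a like amount, with TE changes of 0.03 (−0.75 to 0.81) and −0.19 (−0.88 to 0.49). NRBF2 shares 71.9% of the 28-base words of its coding sequence with other annotated genes, foremost the pseudogene NRBF2P3, so its count is uncertain. ATG14 shares none.

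PIK3R4 (ENST00000356763, chromosome 3, 130678935 to 130746829, minus strand) had 102 and 150 RNA reads and 53 and 153 footprints. It was 1.63-fold higher in RNA (0.71, 0.34 to 1.08) and 2.87-fold in RPF (1.52, 1.07 to 2.01), so that its TE was 1.76-fold higher (0.81, 0.24 to 1.39). Its RPF change was the highest among the 36 members measured. The lipid kinase PIK3C3 (VPS34) itself had 91 and 106 RNA reads and 87 and 93 footprints, with changes of 0.37 and 0.10 whose intervals included 0. BECN1, the shared core subunit, had 282 and 292 RNA reads and 210 and 253 footprints, with changes of 0.20 and 0.27. Per kilobase of coding sequence, RPF of PIK3R4 were 3.44 and 9.94 CPM, wild type first, those of PIK3C3 8.64 and 9.25, and those of BECN1 41.1 and 49.6. On the same scale ATG14 had 4.30 and 9.68 CPM. In the knockout-labelled library PIK3R4, PIK3C3 and ATG14 were therefore at nearly the same footprint level per length. In wild type PIK3R4 and ATG14 were near each other and under PIK3C3, on few reads. BECN1 and NRBF2 (14.7 and 27.7 CPM) lay above all of these in both genotypes, but the count of NRBF2 is uncertain for its shared sequence.

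UVRAG, the subunit that takes the place of ATG14 in the endosomal form of the complex, had 196 and 190 RNA reads and 141 and 96 footprints. Its TE was 1.58-fold lower (−0.66, −1.13 to −0.19), and its RPF change of −0.55 (−0.94 to −0.17) was just short of 1.5-fold. AMBRA1, a BECN1-binding regulator, had 212 and 126 RNA reads and 103 and 125 footprints. Its RNA was 1.51-fold lower (−0.60, −0.93 to −0.27), its RPF change was 0.28 (−0.11 to 0.67), and its TE was 1.83-fold higher (0.87, 0.38 to 1.37). The RNA call of AMBRA1 ended with scaling by total counts, at −0.58.

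The 250 bases before the RefSeq transcription starts (GRCh38.p14) of the members were read for the E-box CACGTG, which is its own reverse complement. Printed are the windows of ATG14 and NRBF2, subunits of 1 complex that were higher in RNA and held an E-box. The E-box is in capitals. ATG14 lies at chr14:55411831-55412080 on the minus strand and NRBF2 at chr10:63133078-63133327 on the plus strand.
ATG14: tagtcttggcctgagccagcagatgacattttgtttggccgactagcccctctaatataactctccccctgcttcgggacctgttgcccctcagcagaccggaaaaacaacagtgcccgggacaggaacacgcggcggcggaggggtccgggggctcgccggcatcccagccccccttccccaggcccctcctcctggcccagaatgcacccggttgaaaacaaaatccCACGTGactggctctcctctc
NRBF2: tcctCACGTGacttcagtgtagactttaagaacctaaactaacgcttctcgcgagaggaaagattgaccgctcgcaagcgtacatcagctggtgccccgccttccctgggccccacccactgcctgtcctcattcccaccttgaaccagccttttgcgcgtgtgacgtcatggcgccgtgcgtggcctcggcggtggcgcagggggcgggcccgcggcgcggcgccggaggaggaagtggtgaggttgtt
The E-box begins 21 bases before the RefSeq start in ATG14 and 246 bases before it in NRBF2. The counted ATG14 transcript starts further upstream, at 55411858 within this window, so its E-box lies just inside that transcript. In NRBF2 the E-box lies before both starts. Of the 32 members in the files that matched the promoter table, 4 had an E-box in this window of at least 1 start (12.5%), the others being ATG3 and SNAP29. Counted the same way, by gene, it was present in 7.73% of all 27305 genes of the table. Counted by window it was in 4 of 37 member windows and in 6.34% of all 35116 windows of that length. The longer CLEAR element, which is the E-box with GT before it and AC after it and its own reverse complement, was in 0 of these 32 members and in 0.374% of all genes of the table. A match is a description of letters and not a binding site. ATG3 and SNAP29 had RNA changes of 0.50 and 0.38, which were not called. PIK3R4, of the same complex as ATG14, and ULK2, ATG4D, TECPR1 and PLEKHM1 were also called higher in RNA. None of them is among the 4 members with an E-box. Members without a match in the promoter table, which could include some of these, were not searched.

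Among the 6 lipid transfer and membrane source genes, ATG2A and WIPI1 were higher and WDR45B lower in RPF, where 39.1% of all genes were called. In RNA 0 of 6 were called, beside 34.0% of all genes. ATG2A, a bridge-like lipid transfer protein, had 292 and 341 RNA reads and 143 and 259 footprints. Its RPF were 1.81-fold higher (0.85, 0.56 to 1.16), with a TE change of 0.48 (0.11 to 0.85) that was short of 1.5-fold. WIPI1, a reader of phosphatidylinositol 3-phosphate, had 125 and 167 RNA reads and 44 and 96 footprints, and its RPF were 2.17-fold higher (1.12, 0.60 to 1.67). Its RNA change of 0.57 (0.23 to 0.92) lay just under the threshold. WIPI2, the paralog that recruits ATG16L1, had 561 and 601 RNA reads and 302 and 414 footprints, with changes of 0.25 and 0.45. WIPI1 per coding length was 0.142 times WIPI2 in wild-type RPF and 0.227 times in knockout-labelled RPF, and 0.218 and 0.272 times in RNA.

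WDR45B (WIPI3), a further reader of that family and a partner of ATG2 proteins, went the other way. WDR45B (ENST00000392325, chromosome 17, 82614562 to 82648535, minus strand) had 417 and 391 RNA reads, an RNA change of 0.06 (−0.14 to 0.26), and 85 and 39 footprints. Its RPF were 2.17-fold lower (−1.11, −1.71 to −0.56) and its TE 2.26-fold lower (−1.17, −1.75 to −0.59). WDR45B already had the lowest wild-type TE level of the 35 members, at −1.85 and percentile 5.65, and reached −3.06 and percentile 1.17 in the knockout-labelled libraries. It shares 28.3% of its coding 28-base words with other annotated genes, foremost its pseudogene WDR45BP1. ATG9A, the scramblase of the seed vesicles, had 327 and 319 RNA reads and 117 and 151 footprints, and 29.6% of its coding 28-base words are shared, foremost with AC068946.2. VMP1, a scramblase of the endoplasmic reticulum, had 272 and 275 RNA reads and 284 and 327 footprints. The RNA and RPF changes of both lay between 0.12 and 0.37 and were not called.

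**Figure D4:**
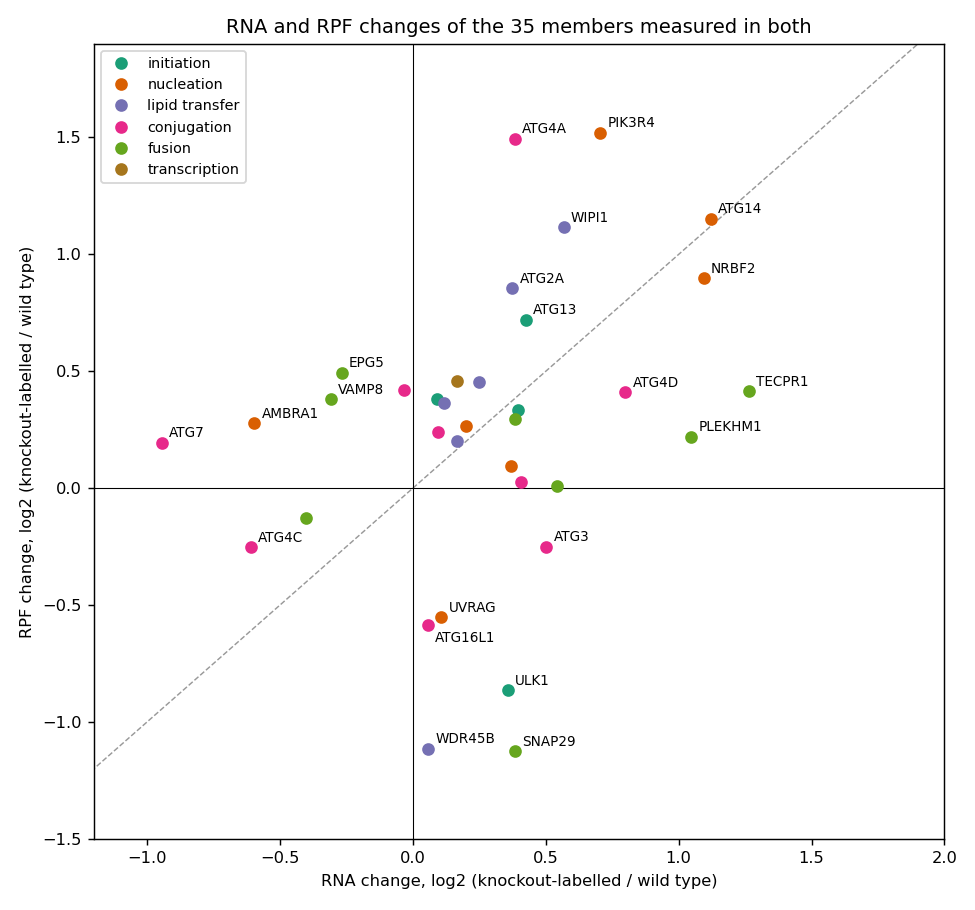
Each point is 1 of the 35 members measured in both kinds, coloured by step, with the RNA change on the x axis and the RPF change on the y axis, both log2. The dashed line marks equal changes, and the names are those of called members. SNAP29, WDR45B and ULK1 lie low with RNA changes of 0.06 to 0.38, and TECPR1 and PLEKHM1 lie far right with RPF changes of 0.42 and 0.22.

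RNA and RPF changes had the same sign for 24 of these 35 members, or 68.6%, beside 67.8% of all 9598 genes. Both were above 0 for 22 and below 0 for 2. RNA was above and RPF below 0 for 6, and the reverse held for 5.

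The conjugation genes split by gene, with no common direction. ATG7, the E1-like enzyme that activates both ATG12 and the LC3 proteins, had 54 and 25 RNA reads and 41 and 47 footprints. Its RNA was 1.92-fold lower (−0.94, −1.71 to −0.25), its RPF change was 0.19 (−0.44 to 0.84), and its TE was 2.20-fold higher (1.14, 0.23 to 2.04). This was the highest TE change among the members, on few reads. ATG3, the E2-like enzyme for LC3, had 239 and 305 RNA reads and 288 and 242 footprints. Its RNA and RPF changes of 0.50 and −0.25 were not called, but they had opposite signs and its TE was 1.69-fold lower (−0.75, −1.10 to −0.41). ATG10, the E2-like enzyme for ATG12, had 30 and 34 RNA reads and only 10 and 9 footprints, too few for RPF and TE.

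ATG5, ATG12 and ATG16L1 form the complex that places LC3 on the membrane. ATG16L1, its membrane-targeting subunit, had 188 and 176 RNA reads and 185 and 123 footprints. Its RPF were lower at log2 −0.59 (−0.93 to −0.25) and its TE 1.56-fold lower (−0.64, −1.09 to −0.20), with an RNA change of 0.06. The RPF call stood at the threshold and ended with scaling by the upper quartile, at −0.57. ATG5 had 226 and 270 RNA reads and 167 and 170 footprints, with a TE change of −0.38 (−0.78 to 0.02). ATG12 had 380 and 365 RNA reads and 196 and 232 footprints, and none of its changes were called. Of its coding 28-base words 45.5% are shared with other annotated genes. Per kilobase of coding sequence, footprints in wild type were 123 CPM for ATG12, 53.5 for ATG5 and 26.9 for ATG16L1. In the knockout-labelled library they were 146, 54.5 and 17.9 CPM, so the order of the 3 was the same.

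The ATG4 proteases, which prime LC3 and GABARAP proteins and later release them, differed in direction. ATG4A (ENST00000372232, chromosome X, 108091668 to 108154671, plus strand) had 85 and 100 RNA reads and 27 and 77 footprints, 2.82-fold higher in RPF (1.49, 0.86 to 2.20) and 2.16-fold in TE (1.11, 0.36 to 1.86). ATG4B, the paralog with the most reads, had 265 and 233 RNA reads and 320 and 428 footprints, with an RNA change of −0.03 and an RPF change of 0.42 (0.21 to 0.63), which was not called. ATG4C had 168 and 99 RNA reads and 68 and 57 footprints, 1.52-fold lower in RNA (−0.61, −0.98 to −0.24). ATG4D had 137 and 215 RNA reads and 54 and 72 footprints, 1.74-fold higher in RNA (0.80, 0.49 to 1.12). For ATG4C and ATG4D the RPF changes of −0.25 and 0.41 had intervals that included 0. In RNA per coding length, ATG4D was 0.429 times ATG4B in wild type and 0.765 times in the other genotype. In RPF that ratio was 0.140 and 0.139, as the RPF changes of ATG4D and ATG4B were of like size (0.41 and 0.42). The TE change of ATG4D was −0.39 (−0.98 to 0.21) and was not called, so its footprints are not shown to depart from its RNA. ATG4A was 0.317 and 0.424 times ATG4B in RNA, and 0.0833 and 0.178 times in RPF.

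Of the 8 fusion genes 2 were higher and 3 lower in TE, beside 29.6% of all genes called. In RNA 2 were called (25% against 34.0% of all genes) and in RPF 1 (12.5% against 39.1%), so both shares were under those of all genes. SNAP29 (ENST00000215730, chromosome 22, 20858983 to 20891218, plus strand), the SNARE that bridges autophagosome and lysosome SNAREs, had 137 and 161 RNA reads and 114 and 52 footprints. Its RNA change was 0.38 (0.05 to 0.72), while its RPF were 2.18-fold lower (−1.13, −1.64 to −0.65) and its TE 2.85-fold lower (−1.51, −2.08 to −0.93). This was the lowest TE change among the 35 members, at percentile 1.97 of all genes measured. Its partner SNAREs did not share it. STX17, the autophagosomal SNARE, had 193 and 227 RNA reads and 101 and 124 footprints and a TE change of −0.09 (−0.56 to 0.38). VAMP8, the lysosomal SNARE, had 457 and 332 RNA reads and 326 and 425 footprints, changes of −0.31 and 0.38, and its TE was 1.61-fold higher (0.69, 0.40 to 0.98). Per kilobase of coding sequence the footprints of SNAP29 were 38.9 and 17.8 CPM, those of STX17 29.5 and 36.2, and those of VAMP8 287 and 375. SNAP29 was thus above STX17 in wild type and below it otherwise.

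Both adaptor and tether genes TECPR1 and PLEKHM1 were higher in RNA without a called difference in footprints. TECPR1 (ENST00000447648, chromosome 7, 98214624 to 98252251, minus strand), a lysosomal tether that binds the ATG12 and ATG5 conjugate, had 187 and 405 RNA reads and 143 and 191 footprints. Its RNA was 2.40-fold higher (1.26, 1.01 to 1.52), the highest RNA change of the 37 members, its RPF change was 0.42 (0.10 to 0.74) and its TE was 1.80-fold lower (−0.85, −1.25 to −0.45). PLEKHM1, an adaptor between the HOPS tether and LC3, had 140 and 261 RNA reads and 127 and 148 footprints, 2.07-fold higher in RNA (1.05, 0.75 to 1.36) and 1.78-fold lower in TE (−0.83, −1.28 to −0.38). Of its coding 28-base words 63.0% are shared, foremost with the pseudogene PLEKHM1P1, so its count is uncertain. EPG5, a tether for late endosomes and lysosomes, had 249 and 186 RNA reads and 107 and 151 footprints, changes of −0.27 and 0.49, and its TE was 1.70-fold higher (0.76, 0.31 to 1.21). The HOPS subunits VPS39, with 279 and 366 RNA reads, and VPS41, with 366 and 249, had RNA changes of 0.54 and −0.40. Their RPF changes were 0.01 and −0.13, and neither was called in any comparison.

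**Figure D5:**
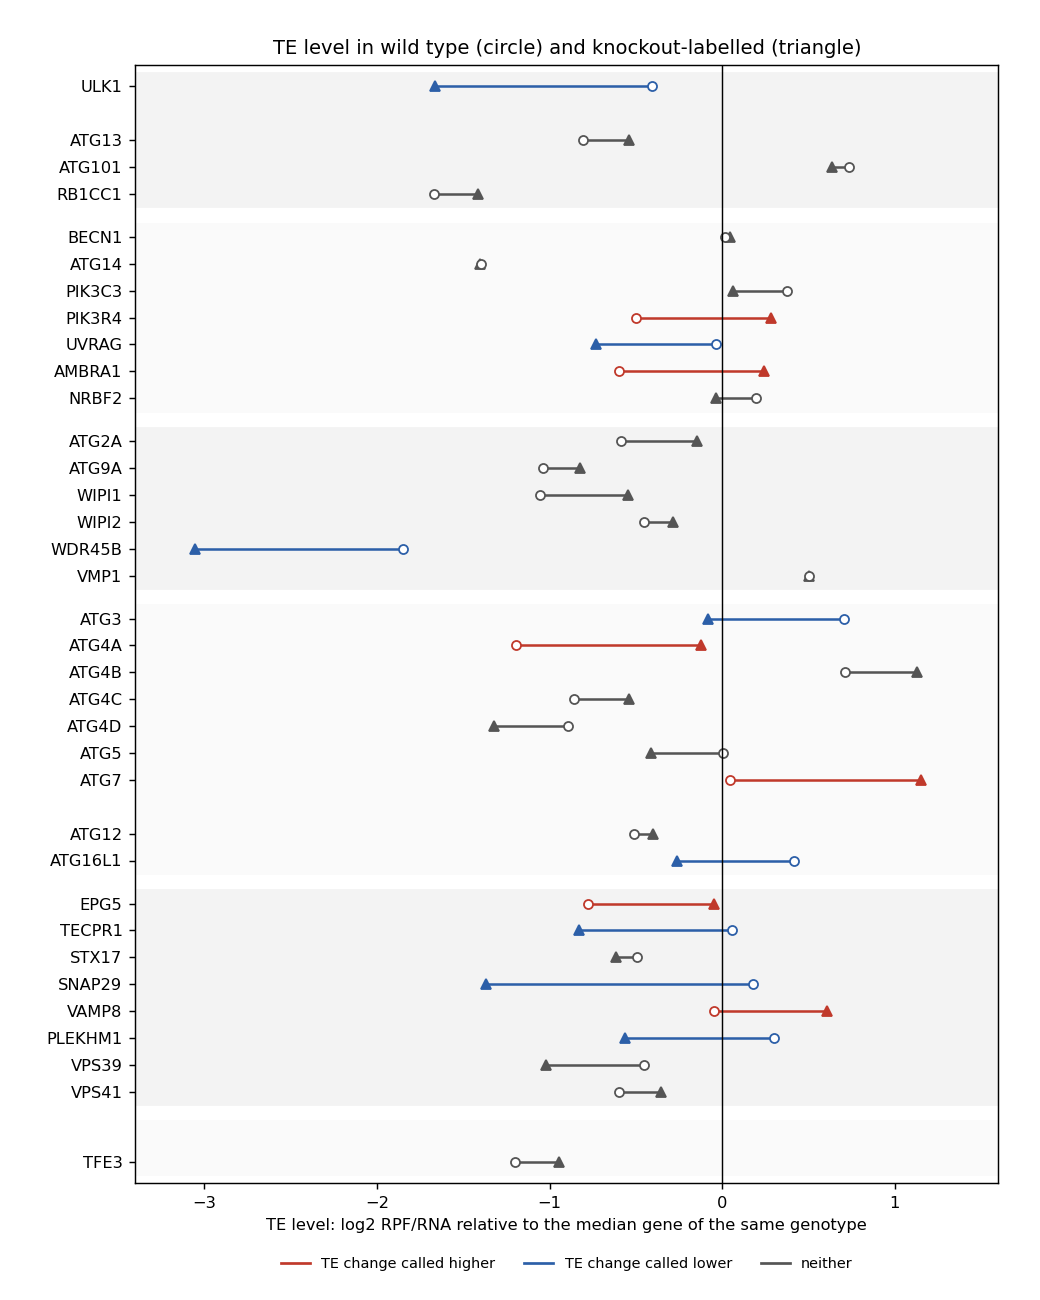
The x axis is the TE level, the log2 ratio of RPF to RNA CPM minus that of the median gene of the same genotype, for wild type (circles) and knockout-labelled (triangles), with members in rows by step. Lines are red or blue where the TE change was called higher or lower. Those of SNAP29, ULK1 and WDR45B are the longest blue lines, and those of ATG7 and ATG4A the longest red ones.

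The median TE level of the 35 members was −0.45 in wild type and −0.40 in knockout-labelled cells, with 22 and 26 members below the median gene. In wild type the levels ran from −1.85 for WDR45B to 0.74 for ATG101. Initiation genes had a wild-type median of −0.61, lipid transfer genes −0.81, fusion genes −0.25, and nucleation and conjugation genes −0.03 and 0.00. In the knockout-labelled libraries these medians were −0.98, −0.41, −0.59, 0.05 and −0.26, so the order of the steps was not the same. Each rests on 4 to 9 genes and is a description only. Levels of the members ran from −3.06 for WDR45B to 1.15 for ATG7 in the knockout-labelled libraries. A difference between these levels minus the TE change is −0.0352 for each gene, since each genotype has its own median gene. Which part of a transcript was counted is not given in the sources used here, so levels of different genes compare only as far as the same region was counted in both kinds of library.

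Of the transcription factors, TFE3 had 547 and 553 RNA reads and 175 and 241 footprints, with changes of 0.17 and 0.46 that were not called. TFEB had only 13 and 27 RNA reads, under the minimum, and 38 and 31 footprints, with an RPF change of −0.29 (−1.03 to 0.43). Per coding length TFEB was 0.0287 times TFE3 in wild-type RNA and 0.0590 times in knockout-labelled RNA, and 0.262 and 0.155 times in RPF. TFE3 was therefore the more abundant of the pair in each of the 4 libraries.

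Other genes of the pathway were taken from a list of 40, of which 36 were in the files. In RNA 9 of 33 measured were higher and 1 lower, with a median change of 0.22, beside the 34.0% of all genes called. In RPF 8 of 32 were higher and 0 lower (median 0.10), and the 25% called lay under the 39.1% of all genes. In TE 3 of 32 were higher and 2 lower (median 0.01), a share of 15.62% that lay under the 29.6% of all genes. MAP1LC3B, the LC3B protein that the conjugation system attaches to the membrane, had 806 and 1468 RNA reads and 509 and 1239 footprints, 2.02-fold and 2.43-fold higher. GABARAPL1 and GABARAPL2 of the same family had RNA changes of 0.14 and 0.44 and RPF changes of 0.14 and 0.03, and were not called. The cargo receptor gene SQSTM1 had 1189 and 922 RNA reads and 1163 and 1046 footprints, with changes of −0.22 and −0.15. SH3GLB1, a membrane-curving partner of UVRAG, had changes of 0.75 and 0.62, the receptor of the endoplasmic reticulum CCPG1 0.75 and 1.31, and RUBCN, a negative regulator that binds the UVRAG complex, 0.89 and 1.01. Each of these 3 was called higher in both kinds, as were MAP1LC3B and TAX1BP1, the latter with changes of 0.65 and 0.67. These were 5 of the 32 measured in both kinds, or 15.6%, beside 7.89% of all genes. A share over so few genes is a description only. The cargo receptor OPTN was higher in RPF, at 0.80 (0.59 to 1.02), with an RNA change of 0.22. PHB2, a mitochondrial receptor, was the gene lower in RNA, at −0.74 (−0.87 to −0.61). TMEM41B, a scramblase that works with VMP1, and the HOPS subunit VPS11 were higher in RNA, at 0.82 and 0.86, with RPF changes of −0.00065 and 0.10 and TE changes of −0.82 and −0.76. These TE changes are the 2 called lower in this list, and the 3 called higher were those of PRKAA2, TEX264 and TOLLIP, at 0.71, 0.66 and 0.60.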

How the data were processed

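Fragments of 18 to 34 nt (RPF) or 18 to 50 nt (RNA) were size-selected, linkers carried random identifiers of 4 and 5 nt, and PCR ran for 15 cycles, per the labels' protocols. For wild-type RNA the cell-line field reads SW840 and the source name SW480, and that library was analysed as SW480. Tools named in the submitters' processing notes are HISAT2 2.1.0, Bowtie 1.1.2 and cutadapt 1.10, with the GRCh38 build. What each did, the annotation, the region counted, how reads shared between genes were handled and whether identifiers were collapsed is not given in the sources used here. Raw read counts per gene, with 1 Ensembl transcript per symbol, are what the authors deposited. Reads after PCR are not independent molecules, so intervals cover counting error only.

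Totals were 5551479 (wild-type RNA), 4932388 (knockout-labelled RNA), 3782874 (wild-type RPF) and 3778316 (knockout-labelled RPF) counts. Libraries of 1 kind were scaled with the trimmed mean of M values in edgeR 4.0.16 under R 4.3.3. All 19192 genes were computed in Python 3.11.15 with NumPy 2.4.6, SciPy 1.17.1 and pandas 2.3.3, and the calculation was tested on simulated data. A prior count of 0.5 was added for log2 ratios. RNA and RPF intervals are exact conditional (Clopper-Pearson) 95% intervals, and TE intervals use the sum of reciprocal counts. With 1 library per group and 0 residual degrees of freedom no test was made and no p-value is given. Coding lengths and 28-base words are from GENCODE release 29 (GRCh38), promoter sequences from RefSeq (GRCh38.p14). The protein sequences planned for paralog pairs were not used here.

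Samples were grouped by title. The members, steps and lists were chosen with earlier results of these data known. All 38 members are named, with counts for those called and for paralogs. Of the other autophagy genes, MAP1LC3B, GABARAPL1, GABARAPL2 and SQSTM1 were named whatever their values. Others were named from those called, up to 4 a side by the interval bound nearest to no change. TAX1BP1 was named to complete the genes higher in both kinds. Alternatives were other scalings, read minimums, a 2-fold threshold and another prior count.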

Additional observations from a re-analysis of the deposited data

How the results depend on the processing

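No paired analysis was possible because each group has 1 library and the labels give no shared replicate numbers, and for the same reason no library could be left out. Scalings by total counts, median of ratios and upper quartile, no minimum, a minimum of 20 reads and a prior count of 2 were tried. Under each, the numbers of members called stayed within 1.5 times those reported, and no called change reversed. A reversal was hardly open to these settings, so its absence is no support. Read minimums leave each log2 value as it is, and scaling ratios against total counts lay between 0.987 and 1.023. AMBRA1 in RNA was no longer called with total counts or the upper quartile (−0.58 in each), and ATG16L1 in RPF with the upper quartile (−0.57) or the larger prior (−0.58). At a minimum of 200 reads 24 members were measured in RPF and in TE, with 3 higher and 1 lower in RPF and 4 higher and 5 lower in TE, beside 34.2% and 22.9% of all genes called either way. At 2-fold, 5 of 37 members were higher and 0 lower in RNA, 4 were higher and 2 lower in RPF, and 2 were higher and 3 lower in TE, beside 14.7%, 18.9% and 12.7% of all genes called either way. Fewer genes measured and a higher threshold account for these lower counts by construction. Leaving out the 5 members that share over 20% of their coding words, a choice made after seeing the data, kept all 6 counts within 1.5 times. ULK2, ATG10 and TFEB had too few reads for a TE change.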
